A study of Mus musculus with 4 samples.

Results

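The Nedd4 family ligases and their adaptors were taken as every array probe set annotated with exactly 1 gene symbol out of 9: the ligases Nedd4, Nedd4l, Itch, Wwp1, Wwp2, Smurf1 and Smurf2, and the adaptors Ndfip1 and Ndfip2. All 9 genes were on the array, of 18194 named genes in all, with 33 probe sets between them. They were measured in mDCT, a line of immortalised murine cells from the distal convoluted tubule, in which every library, the control included, came from cells transfected with a plasmid for the human mineralocorticoid receptor (hMR) carrying a FLAG tag. Transient transfection may leave some cells without the receptor, and the labels give no share of transfected cells. The 4 treatments had 1 library each: ethanol for 3 h; 1 nM aldosterone for 3 h; 100 nM aldosterone for 3 h; and 100 nM aldosterone for 3 h after 2 h of pretreatment with 5 µM spironolactone, an antagonist of the receptor. Pretreatment with spironolactone or ethanol began 48 h after transfection, and no library received spironolactone alone. With 1 library per treatment there was no replicate error, so each value below compares single libraries, without a test.

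These ligases carry an N-terminal C2 domain that binds membranes, several WW domains that grip proline-rich PY motifs in their partners, and a C-terminal HECT domain that passes ubiquitin to the substrate. In the aldosterone-sensitive nephron the best known of them is Nedd4l (NEDD4-2), which ubiquitinates the epithelial sodium channel ENaC and draws it from the cell surface. The kinase SGK1, whose gene is induced by aldosterone, phosphorylates NEDD4-2, which then binds 14-3-3 proteins and acts less on the channel. Ndfip1 and Ndfip2 are membrane proteins with PY motifs that bring the ligases to endosomes and relieve their autoinhibition.

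The arrays had been scaled alike before deposit, with a trimmed mean signal of 500.003 in every library, and Pearson correlations between libraries over the 11058 genes that passed the signal filter lay between 0.991 and 0.992. That filter kept a gene if its brightest probe set had a mean log2 signal no lower than that of the median probe set, which was 55.9 on the linear scale. Of 11 distal convoluted tubule markers on the array 5 passed it (Pvalb, Trpm6, Wnk4, Egf and Kcnj10), with summed signals over the whole list of 634 to 802. Slc12a3, the thiazide-sensitive cotransporter that defines the segment, had signals of 3.93 to 17.2 and did not pass, nor did Calb1. Of 6 general epithelial markers 2 passed, the kidney cadherin Cdh16 at 2406 to 2667 and Epcam at 137 to 175, while Cdh1, Krt8, Krt18 and Cldn7 did not, and the list's summed signal was 2661 to 2942. Of 6 proximal tubule markers 5 passed, among them Aqp1 at 2069 to 2479, and the list's summed signal was 2850 to 3174. Of the 4 intercalated cell markers and the 7 fibroblast markers 0 passed, and of the 4 collecting duct, 4 endothelial and 4 leukocyte markers 1 each did (Hsd11b2, Kdr and Cd68). Mouse Nr3c2, which encodes the receptor itself, was also under the filter. Whether its mouse probe set detects the transfected human receptor was not tested. The part of these marker levels in the results below was not tested.

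The promoters are shown because the treatments act through a steroid receptor that binds DNA. RefSeq windows of GRCm38.p6 were used for 5 of the 9 genes, with 6 start sites. Member windows on 1 chromosome were left out, and the background of all windows was not limited in that way. No window of Nedd4l or Ndfip1 was therefore among the 6, and the source of the windows held none for Itch or Wwp1. The 250 bases before each start were searched on both strands for the full response element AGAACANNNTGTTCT and for its half-site AGAACA, which the full element contains. The full element was found in 0 of the 6 windows and in 3 of all 32851 windows. The half-site was found in 1 of the 6, one of the 2 Nedd4 starts, and in 16.1% of all windows. It began 216 bases before that start, read on the reverse strand, and is in capitals here. The windows of Wwp2, the ligase with the widest range of signal, and Ndfip2, the adaptor with the wider range, hold no match and are shown beside it.
Nedd4, chr9:72693048-72693297, plus strand: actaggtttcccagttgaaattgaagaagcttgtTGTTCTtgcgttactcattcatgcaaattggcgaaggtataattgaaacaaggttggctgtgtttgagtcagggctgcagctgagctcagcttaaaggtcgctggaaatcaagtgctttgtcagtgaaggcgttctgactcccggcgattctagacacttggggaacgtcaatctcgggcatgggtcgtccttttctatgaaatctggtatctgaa
Wwp2, chr8:107436120-107436369, plus strand: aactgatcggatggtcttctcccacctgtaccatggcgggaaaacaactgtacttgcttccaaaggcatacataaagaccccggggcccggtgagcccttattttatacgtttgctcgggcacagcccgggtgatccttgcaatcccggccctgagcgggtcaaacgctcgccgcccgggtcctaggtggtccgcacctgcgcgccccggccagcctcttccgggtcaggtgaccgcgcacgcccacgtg
Ndfip2, chr14:105258373-105258622, plus strand: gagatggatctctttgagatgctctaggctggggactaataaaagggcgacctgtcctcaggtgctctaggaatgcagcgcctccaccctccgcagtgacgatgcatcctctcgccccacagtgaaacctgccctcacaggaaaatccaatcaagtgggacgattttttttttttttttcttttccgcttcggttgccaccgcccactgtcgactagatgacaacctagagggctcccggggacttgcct
The share of G and C was 46.0% in the Nedd4 window with the half-site and 74.0% in the other Nedd4 window, against a median of 52.4% over all windows. It was 62.8% for Wwp2, 53.2% for Ndfip2, 74.8% for Smurf1 and 82.0% for Smurf2. A match of letters is a description of the window and not a site of binding.

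All 9 genes passed the signal filter through their brightest probe set, which stands for the gene unless another is named, and 7 of the 9 lay above the 75th percentile of all probe sets. None of the 9 differed by 1.5-fold or more, in either direction, in any of the 5 comparisons. The background shares of genes that did so were 4.11% for 100 nM aldosterone against ethanol, 4.68% for 1 nM against ethanol, 4.01% for 100 nM against 1 nM, 4.33% for spironolactone against 100 nM aldosterone alone and 4.21% for spironolactone against ethanol. Among genes above the 75th percentile of signal those shares were 0.418%, 0.634%, 0.461%, 0.461% and 0.389%, so a count of 0 among 9 genes is near the background. Of the genes past 1.5-fold with 1 nM aldosterone, 55.8% were higher than ethanol, and 42.3% after each library was centred on its median. For 100 nM against 1 nM these shares were 51.0% and 61.3%.

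**Figure D1:**
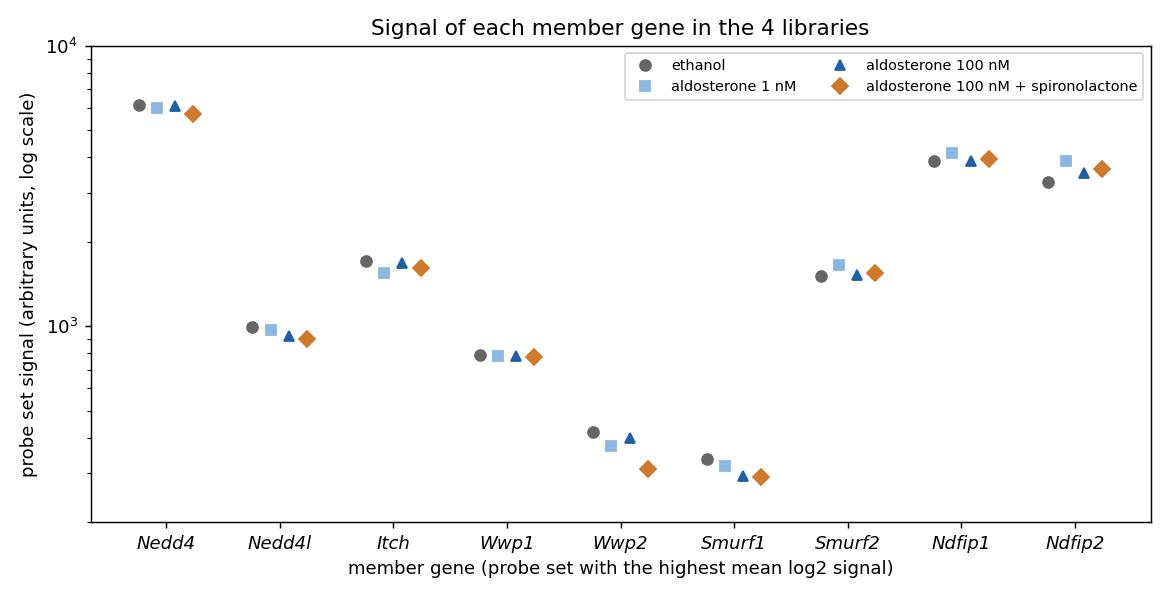
Signal (log scale) of the brightest probe set of each of the 9 genes; each point is 1 library, coloured by treatment. Within each gene the 4 points lie close together, the widest spread being that of Wwp2, from 309 with spironolactone to 421 in ethanol.

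Nedd4l had signals of 993 in ethanol, 972 with 1 nM aldosterone, 923 at 100 nM and 903 with spironolactone. Ethanol was the highest and spironolactone the lowest, 1.10-fold apart. The log2 difference was -0.10 for 100 nM aldosterone against ethanol, -0.03 for 1 nM and -0.14 for spironolactone. Of its 6 probe sets only 1 other passed the filter, with signals of 75.6, 78.6, 60.0 and 80.3 in the same order. That probe set was lowest with 100 nM aldosterone, by 0.33 on the log2 scale against ethanol, and its difference for spironolactone against 100 nM was 0.42 where the brighter one gave -0.03. The remaining 4 lay under the filter. The dimmest pair had signals from 0.75 to 9.71, at which no fold is read.

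Sgk1, the kinase that acts on NEDD4-2, stood beside this with signals of 801, 935, 1810 and 1424, a log2 difference of 1.18 for 100 nM aldosterone against ethanol. Tsc22d3 encodes GILZ, a partner of SGK1 that inhibits NEDD4-2, and had a difference of 0.94 in the same comparison, with 0.63 in its next brightest probe set. Of the 17 listed regulators of Nedd4l that passed the filter, 3 differed by 1.5-fold or more in this comparison, where 4.11% of all genes did. These 2 were higher and the deubiquitinase Usp2 lower. The list was chosen with earlier results of these data known, so the count is no test of the regulators as a set. The ligase's own transcript differed by 1.08-fold. Scnn1a, the α subunit of ENaC, had signals of 58.2, 89.3, 87.5 and 99.2, lowest in ethanol and close to the filter. The other ENaC subunits, Scnn1b at 32.0 to 44.7 and Scnn1g at 6.21 to 14.7, did not pass the filter.

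Nedd4, the founding ligase of the family, which also acts on growth factor receptors, had signals of 6175 in ethanol, 6018 with 1 nM aldosterone, 6081 at 100 nM and 5719 with spironolactone. The first 3 lay within 1.03-fold of each other, and spironolactone was lowest. All 3 of its probe sets passed the filter. Their differences for 100 nM aldosterone against ethanol were between -0.02 and 0.00, the closest accord among the members with several probe sets. For spironolactone against ethanol they were -0.11, 0.06 and -0.16, and so did not share a sign.

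Itch, a ligase of JUN family proteins and a brake on T cell activation, had signals of 1707, 1550, 1678 and 1616 in the same order, with 1 nM aldosterone lowest. Its 3 other probe sets were dim, and the only one that passed the filter had signals of 84.1, 62.6, 56.7 and 94.2. In that probe set ethanol and spironolactone were high and both aldosterone libraries low. Its difference for spironolactone against 100 nM aldosterone was 0.73, past 1.5-fold, while the bright probe set gave -0.05. The dim pair under the filter gave 0.18 and 0.68.

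Wwp1, a ligase of KLF5 and other transcription factors, was the flattest member, with signals of 792, 781, 784 and 779. Its highest and lowest libraries were 1.02-fold apart, and 99.5% of the 11058 genes had a wider or equal range. Its other probe sets, at 672, 747, 744 and 701 and at 400.5, 394.9, 423.1 and 408.8, had ranges of 0.15 and 0.10, with differences from ethanol of -0.02 to 0.15.

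Wwp2, whose substrates include the transcription factor OCT4, had the widest range of the 9, with signals of 421 in ethanol, 373 with 1 nM aldosterone, 399 at 100 nM and 309 with spironolactone. The spironolactone library stood below the other 3. Its log2 difference was -0.45 against ethanol, 1.36-fold, and -0.37 against 100 nM aldosterone alone. A range as wide was found in 20.1% of all genes and in 4.54% of those above the 75th percentile of signal, a level that Wwp2 itself did not reach. The next brightest probe set, at 191, 193, 250.2 and 203, was highest with 100 nM aldosterone. It differed by -0.30 between spironolactone and 100 nM, but by 0.09 between spironolactone and ethanol. The dimmest that passed, at 96.4, 68.0, 47.5 and 63.0, was highest in ethanol and was 2.03-fold lower with 100 nM aldosterone, where the brightest differed by -0.08. Its signal with 100 nM aldosterone lay under the filter signal of 55.9, so little is read from that fold. The low value with spironolactone against ethanol was thus shared by this dim probe set (-0.61) and not by the second. Another 3 probe sets lay under the filter.

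Smurf1, a ligase of BMP pathway SMADs and of RhoA, had signals of 335 in ethanol, 317 with 1 nM aldosterone, 291 at 100 nM and 290.04 with spironolactone. Ethanol was highest, and both libraries with 100 nM aldosterone were lowest and within 0.01 of each other on the log2 scale. The difference from ethanol was -0.20 for 100 nM alone and -0.21 with spironolactone. A range as wide as its 0.21 was found in 53.2% of all genes. Its second probe set had signals of 5.37 to 8.94, under the filter, and so offers no check.

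Smurf2, which acts on TGF-beta receptors together with SMAD7, had signals of 1514, 1654, 1529 and 1545, with 1 nM aldosterone highest. Its other probe sets, at 636, 555, 581 and 611 and at 349, 311, 373 and 302, were lower with 1 nM than in ethanol. The difference between 1 nM and ethanol was 0.13 in the brightest and -0.20 and -0.17 in the others, so the probe sets opposed each other.

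Ndfip1, the adaptor that also limits metal uptake through the iron transporter DMT1, had signals of 3882 in ethanol, 4153 with 1 nM aldosterone, 3893 at 100 nM and 3939 with spironolactone. Ethanol was lowest in each of its 3 probe sets, all of which passed the filter. With 1 nM aldosterone they differed from ethanol by 0.10, 0.36 and 0.05, with 100 nM by 0.00, 0.28 and 0.03, and with spironolactone by 0.02, 0.11 and 0.11. The second of them, with signals of 2410, 3093, 2922 and 2599, gave the largest difference at both doses of aldosterone alone. Those comparisons share the ethanol library, so a low value there enters all of them. After quantile normalization or centring on the median the brightest probe set differed by -0.01 between 100 nM aldosterone and ethanol, so its direction there is not settled.

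Ndfip2, the related adaptor, had signals of 3263 in ethanol, 3900.4 with 1 nM aldosterone, 3521 at 100 nM and 3639 with spironolactone. It was also lowest in ethanol and highest with 1 nM, 0.26 apart on the log2 scale, a range that 42.9% of all genes and 22.0% of those above the 75th percentile of signal met or passed. Its other 2 probe sets were far dimmer and went opposite ways. One, at 151, 102, 97.7 and 158, was low in both libraries with aldosterone alone, with a difference of -0.63 for 100 nM against ethanol and 0.70 for spironolactone against 100 nM. The other, at 38.4, 91.8, 70.1 and 81.6, was low in ethanol, with differences of 1.26 for 1 nM, 0.87 for 100 nM and 1.09 for spironolactone. Its ethanol signal lay under the filter signal of 55.9. It passed only through the libraries where it was high, so its differences support no direction.

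**Figure D2:**
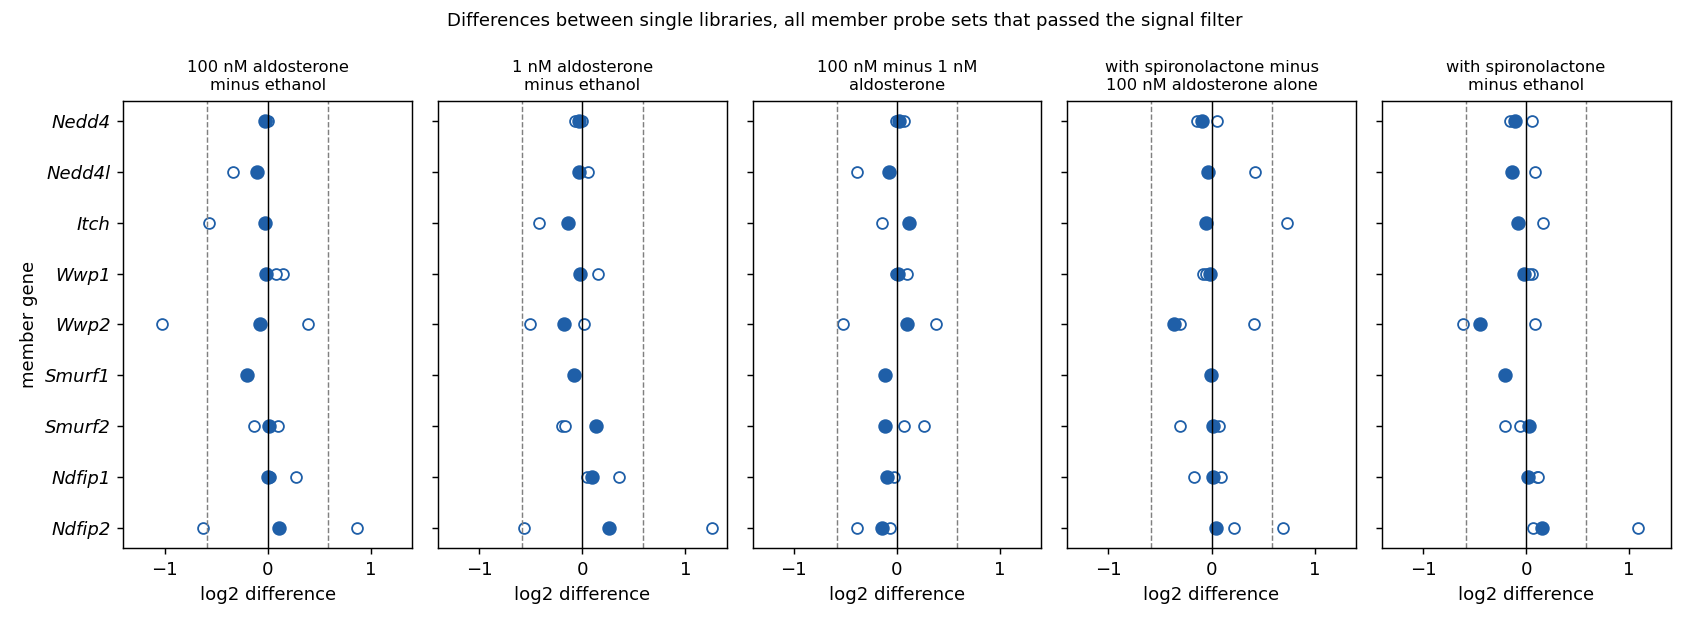
Log2 difference between single libraries for the 23 member probe sets that passed the filter, in the 5 comparisons. Filled points are the brightest probe set of a gene, open points its others, and dashed lines mark 1.5-fold; every filled point lies between the dashed lines, and the points beyond them are open ones of Itch, Wwp2 and Ndfip2.

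Taking each gene once, 6 of the 7 ligases were lower than ethanol with 100 nM aldosterone and both adaptors higher, with differences from -0.20 for Smurf1 to 0.11 for Ndfip2. The median over the 9 was -0.02, against 0.00 over all genes, of which 51.3% were below 0. After centring on the median 7 ligases were lower and 1 adaptor higher, and after quantile normalization 5 and 1. With 1 nM aldosterone the same counts of 6 and 2 were found, with differences from -0.18 for Wwp2 to 0.26 for Ndfip2 and a median of -0.03, against -0.01 over all genes. Spironolactone against ethanol gave 6 and 2 again, from -0.45 to 0.16, with a median of -0.08 against -0.01. These 3 comparisons share their ethanol library. With the next brightest probe set of the 6 ligases that had one, 4 were lower than ethanol at 100 nM aldosterone, 3 at 1 nM and 1 with spironolactone, so the direction of the ligases as a group depends on the probe set.

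Between the doses, both adaptors were lower with 100 nM than with 1 nM aldosterone, Ndfip1 by 0.09 and Ndfip2 by 0.15 on the log2 scale, and all 6 of their probe sets that passed the filter shared that direction. Over all genes 48.7% were below 0. The 6 compare the same 2 libraries, and the smallest difference among them was -0.02. After centring on the median the brightest gave -0.04 and -0.10 and the median over all genes was 0.06, so the shared direction may depend on the scaling. The ligases lay between -0.12 for Smurf1 and 0.11 for Itch. The median over the 9 genes was -0.07, against 0.00 over all genes. Spironolactone against 100 nM aldosterone alone gave differences of -0.37 for Wwp2 to 0.05 for Ndfip2, with a median of -0.01 against 0.00, and without Wwp2 the lowest was -0.09, that of Nedd4.

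Of the 23 member probe sets that passed the filter, 3 differed by 1.5-fold or more for 100 nM aldosterone against ethanol, 1 for 1 nM against ethanol, 0 for 100 nM against 1 nM, 2 for spironolactone against 100 nM and 2 for spironolactone against ethanol. The background shares over all probe sets that passed were 6.36%, 6.75%, 5.83%, 6.64% and 6.3%. All of these member probe sets had signals of at most 158 in every library. That of Wwp2 and the dimmer one of Ndfip2 each had 1 library under the filter signal of 55.9 and passed by their mean. Over the 5220 genes with a second probe set that passed, the difference for 100 nM aldosterone against ethanol differed between the brightest and the next by a median of 0.16 and a 90th percentile of 0.54. For 8 members the median gap was 0.25 and the highest 0.74, that of Ndfip2. Over the 5 comparisons that 90th percentile lay between 0.51 and 0.55. Each difference of a member's brightest probe set was smaller, the largest being the -0.45 of Wwp2.

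**Figure D3:**
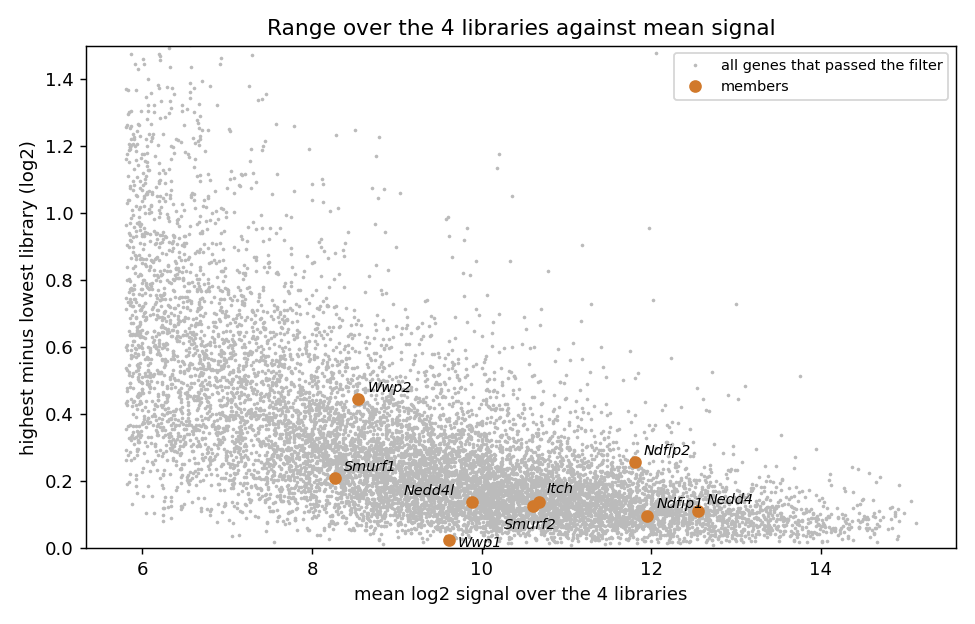
Highest minus lowest library (log2) against mean log2 signal for the 11058 genes that passed the filter (grey, 1 point a gene, 87 genes above the axis not drawn) and the 9 members (orange). Ranges widen toward low signal, and the members lie within the grey cloud, Wwp2 at 0.45 and Wwp1 at 0.02 being the extremes among them.

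The median range over the 4 libraries was 0.14 for the members, against 0.22 for all genes and 0.16 for genes above the 75th percentile of signal. By library, ethanol was the highest for 6 of the 9 genes and the lowest for 3, and spironolactone was the lowest for 5 and the highest for 0. Over all genes ethanol was the highest for 27.1% and spironolactone the lowest for 25.0%. Over the 23 member probe sets that passed, ethanol was the highest for 9 and the lowest for 8, and spironolactone the lowest for 7 and the highest for 5, so the brightest probe sets' order was not that of all. The genes whose centred profile over the 4 libraries lay nearest to that of Wwp2 were Gpr155, Loxl3 and Inpp5k, at Euclidean distances of 0.03, 0.03 and 0.04 on the log2 scale. The nearest to Nedd4l were Shox2, Axin1 and Mkrn2, at 0.01, 0.01 and 0.02. With 4 libraries such likeness is common: 431 genes lay within 0.2 of Wwp2 and 5423 within 0.2 of Nedd4l.

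Across 5 lists of related genes, 84 symbols in all, 78 were matched on the array and 70 of those passed the filter. Of these, 3 were at least 1.5-fold higher and 1 lower for 100 nM aldosterone against ethanol, where the shares over all genes were 2.39% and 1.72%. The counts were 2 and 0 for 1 nM against ethanol (2.61% and 2.07% over all genes) and 2 and 2 for 100 nM against 1 nM (2.04% and 1.96%). They were 1 and 0 for spironolactone against 100 nM (1.83% and 2.5%), and 2 and 2 for spironolactone against ethanol (2.17% and 2.03%).

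Of the other listed partners of these ligases, among them the arrestin-like adaptors of the Arrdc family, all 14 passed the filter. By their brightest probe sets 0 differed by 1.5-fold in any of the 5 comparisons, where 4.01% to 4.68% of all genes did in each. The next brightest of Arrdc4 gave 0.79 for 1 nM aldosterone and 0.95 for spironolactone, both against ethanol. That of Grb10 gave -0.64 for 100 nM against ethanol and 0.66 for spironolactone against 100 nM. Those of Arrdc1, Pmepa1, Amot and N4bp1 stayed under 1.5-fold. The median of the 14 was 0.11 for 100 nM aldosterone against ethanol. The widest were Arrdc2, with signals of 97.0, 124, 113 and 138, and N4bp3, with 326, 358, 366 and 446, both lowest in ethanol and highest with spironolactone. Of the 18 listed regulators of Nedd4l, Usp2, a deubiquitinase that opposes NEDD4-2 at ENaC, was at 169 in ethanol, 175 with 1 nM, 113 with 100 nM and 206 with spironolactone. The 14-3-3 genes that passed (Ywhab, Ywhae, Ywhag, Ywhah, Ywhaq and Ywhaz) each had a range of at most 0.12 in the brightest probe set over the 4 libraries on the log2 scale. In the next brightest, Ywhag differed by -0.31 and Ywhae by -0.16 for 100 nM aldosterone against ethanol. That of Ywhaz differed by 0.16 for spironolactone against 100 nM, while those of Ywhab and Ywhaq stayed within 0.12 in every comparison.

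Of 26 listed substrates 20 passed, with 1 higher and 0 lower by 1.5-fold for 100 nM aldosterone against ethanol and a median of -0.06. The higher one was Scnn1a. Fgfr1, a receptor that NEDD4 removes from the surface, had the widest range, with signals of 193, 249, 138 and 154, highest with 1 nM aldosterone. Of 6 listed E1 and E2 enzymes, which activate and carry ubiquitin, 4 were matched on the array and passed, all of them E2 enzymes. Ube2d2a had signals of 5936 in ethanol, 9835, 8879 and 8748, lowest in ethanol by 0.56 to 0.73 on the log2 scale, but its next brightest probe set differed by -0.02 to 0.04. Ube2d1 had signals of 453, 433, 421 and 299.7, lowest with spironolactone.

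Of 20 HECT ligases listed outside the 7, 17 were matched on the array and 15 of those passed. Of the 15, 0 differed by 1.5-fold for 100 nM aldosterone against ethanol, with a median of -0.05. Arel1 was not matched because its symbol was misspelled in the list, so it is not in these counts. It passed the filter, with a range of 0.20 over the 4 libraries on the log2 scale. Hecw1 and Hecw2, the other members of the Nedd4 family by sequence, had signals of 28.4 to 41.5 and 7.90 to 21.3 and did not pass. Herc3 had signals of 398, 426, 376 and 264, lowest with spironolactone, a difference of -0.59 from ethanol that was -0.37 in its next brightest probe set. In that second probe set both libraries with aldosterone alone were lower still, at -0.85 for 1 nM and -0.82 for 100 nM. For spironolactone against 100 nM the 2 probe sets opposed each other, at -0.51 in the brightest and 0.44 in the next. Huwe1, a giant ligase of MCL1 and MYC, had 1834, 1867, 1559 and 2296, lowest with 100 nM aldosterone and highest with spironolactone, a difference of 0.56 between those libraries that was 0.46 in its next brightest probe set.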

How the data were processed

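One Affymetrix 3' array was measured for each of 4 treatments, from 250 ng of total RNA. The deposited values are linear intensities of probe sets, and MAS5 is the tool named in the submitters' processing notes; its version and scaling target are not stated in the sources used here, and no detection calls were used. Each library was assigned from its own treatment label. Of 45101 probe sets, 34958 had 1 gene symbol in the platform annotation and 932 had several, which were left unnamed. A gene was represented by its brightest probe set, by mean log2 signal, and entered at or above the 50th percentile of probe sets, controls left out. Differences are of log2 signal, with no pseudocount, computed with Python 3.11.15, numpy 2.4.6 and pandas 2.3.3, and were counted at 1.5-fold. With 1 library per treatment no p-value is given, and precision is limited by there being only 4 arrays. The procedure was tested on simulated data. Alternatives were other scalings, filters, a floor, a pseudocount and other probe sets. The members and lists were chosen with earlier results of these data known. Named genes are all members, the 2 of each of the 5 pathway lists with the widest range, Sgk1, Tsc22d3, Usp2, Scnn1a, Hecw1 and Hecw2, and the 3 genes nearest in pattern to Nedd4l and to the member of widest range. Genes beside these (the other sodium channel subunits, the 14-3-3 genes, cell type markers and genes named for their next brightest probe set) are named from the lists after their values were seen.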

Additional observations from a re-analysis of the deposited data

How the results depend on the processing

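The count of members past 1.5-fold was 0 in all 5 comparisons with signals as deposited, and also after quantile normalization, centring on the median, taking the median of all a gene's passing probe sets, no filter, a filter at the 75th percentile (which kept 7 members), a floor at the filter signal, and a pseudocount of 16. There were 2 alternatives chosen after seeing the data. The next brightest probe set gave 1 of 8 members for 100 nM aldosterone against ethanol (Ndfip2) and 2 for spironolactone against 100 nM (Itch and Ndfip2). A threshold of 1.2-fold gave 1 of 9 for spironolactone against 100 nM and 1 of 9 against ethanol, both Wwp2. The shares over all genes under these 2 alternatives are not given here, so the counts are not set against a background. The next brightest probe set changed the sign of 22 of 40 member differences, the median over probe sets 10 of 45, and centring and quantile normalization 2 of 45 each; the cause was not tested. Without the filter 4746 genes, against 454 with it, differed by 1.5-fold or more for 100 nM aldosterone against ethanol, and 29 did with the filter at the 75th percentile. No paired analysis was possible because each treatment had 1 library. For the same reason no replicate could be left out.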
